A study of Mus musculus with 4 samples.

Results

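Neurotrophin and GDNF signaling genes were examined in RNA sequencing libraries labelled as uterine NK cells of pregnant mice. The set holds 8 of the 21993 genes in the files: the receptor genes Ngfr, Ntrk2, Ntrk3, Ret and Gfra1 and the ligand genes Bdnf, Ntf3 and Gdnf. The members were selected on the FPKM of Ngfr, which is high and differs between the genotypes in these same files, so every value of a member is given as a description, with no test. The Ncr1Cre libraries (n = 2) come from females carrying Cre recombinase driven from Ncr1, an NK-cell receptor gene, and the control libraries (n = 2) from females without Cre. All females had been mated with B6 males and were taken at gd11.5 (gestational day), and the cells were sorted from uterine tissue by flow cytometry as CD3-CD45+NK1.1+. Whether the libraries of 1 genotype come from different females is not stated in the labels. The p-values below thus set a difference against the spread between libraries, which may be technical and is estimated in part over all genes.

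Neurotrophins are secreted growth factors best known for keeping neurons alive and guiding their endings into target tissue. BDNF acts through the receptor tyrosine kinase TrkB (Ntrk2) and NT3 through TrkC (Ntrk3), while the p75 receptor (Ngfr), a member of the tumor necrosis factor receptor family, binds all mature neurotrophins and, together with sortilin, their uncleaved precursors. GDNF binds the membrane-anchored co-receptor GFRA1, and the pair activates the receptor tyrosine kinase RET. Outside the nervous system Ngfr is also known as a surface marker of mesenchymal stromal cells, and Ret and Gfra1 are known for their part in kidney and enteric nerve development.

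The start regions of Ngfr, Ntrk2 and Gfra1 are shown because these receptor genes were all lower in the Ncr1Cre libraries and each has a single annotated start window in the RefSeq table. A window runs from 250 bases before to 50 bases after the start, 5′ to 3′ on the strand of the gene, in build GRCm38.p6, which is newer than the build of the files. Capitals mark the GC box GGGCGG or its reverse complement CCGCCC. Ngfr lies at chr11:95587649-95587948 on the minus strand, Ntrk2 at chr13:58806319-58806618 on the plus strand and Gfra1 at chr19:58455349-58455648 on the minus strand.
Ngfr: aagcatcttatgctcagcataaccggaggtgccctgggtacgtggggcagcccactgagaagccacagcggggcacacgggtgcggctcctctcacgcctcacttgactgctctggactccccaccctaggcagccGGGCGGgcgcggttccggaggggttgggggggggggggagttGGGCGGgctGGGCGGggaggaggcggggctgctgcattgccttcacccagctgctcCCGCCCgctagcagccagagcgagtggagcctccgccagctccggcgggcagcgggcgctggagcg
Ntrk2: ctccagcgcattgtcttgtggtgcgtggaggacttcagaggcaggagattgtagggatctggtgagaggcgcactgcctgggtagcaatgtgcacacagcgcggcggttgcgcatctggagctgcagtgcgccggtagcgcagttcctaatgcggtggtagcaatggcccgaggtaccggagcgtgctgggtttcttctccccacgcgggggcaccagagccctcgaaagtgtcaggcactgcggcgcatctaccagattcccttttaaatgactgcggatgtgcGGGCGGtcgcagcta
Gfra1: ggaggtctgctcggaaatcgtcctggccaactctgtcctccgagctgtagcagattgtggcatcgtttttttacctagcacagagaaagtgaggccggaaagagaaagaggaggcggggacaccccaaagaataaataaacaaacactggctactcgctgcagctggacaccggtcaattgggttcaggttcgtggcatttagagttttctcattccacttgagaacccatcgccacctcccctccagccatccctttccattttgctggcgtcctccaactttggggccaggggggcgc
The Ngfr window held 4 GC boxes at a GC content of 71.7%, the Ntrk2 window 1 at 61.3% and the Gfra1 window 0 at 54.0%. On either strand the GC box occurred in 35.7% of the 32851 windows of this length in the table, whose median GC content was 52.7%. The TATA box TATAAA (13.6% of all windows) and the cyclic AMP response element TGACGTCA (1.79%) had 0 matches in each of the 3 windows. Of the 8 members, 6 had an entry in the table.

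Expression is given as FPKM, which counts fragments per kilobase of transcript, scaled to all mapped fragments of the library, so levels of different genes can be compared per length. The files give no totals. Low values of genes with 1 annotated transcript fell on steps of whole fragments at totals of 26030000 and 22680000 fragments in the Ncr1Cre libraries and of 38500000 and 21000000 in the control libraries, which are estimates. The genes of the sort markers were low: Ptprc, the gene of CD45, stood at 4.39 and 5.16 FPKM in the Ncr1Cre libraries, against 2.89 and 2.57 in the control libraries, and Klrb1c, the gene of NK1.1, at 0.924 and 0.673, against 0.449 and 0.973. Cd3e stood at 0.0796 and 0.134 FPKM in Ncr1Cre and was listed at 0 in both control libraries, and Ncr1 was listed at 0 and stood at 0.152 in the Ncr1Cre libraries, against 0.136 and 0.359. Over 11 NK-cell genes the summed FPKM was 32.6 and 33.1 in Ncr1Cre, against 22.7 and 23.0 in control. Over 11 genes of decidual stroma and fibroblasts they summed to 9920 and 10040 in Ncr1Cre, against 20562 and 21314 in control. These levels go against the label of a pure NK-cell sort, so values are given for libraries and not for NK cells, and in such bulk RNA fewer cells of a type and less RNA per cell cannot be told apart.

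Ngfr was by far the most abundant member and was lower in the Ncr1Cre libraries. It stood at 57.5 and 52.7 FPKM in the Ncr1Cre libraries, against 154 and 143 FPKM in the control libraries. Both Ncr1Cre libraries lay below both control libraries, and the mean was 2.70-fold lower (55.1 ± 3.39 FPKM in Ncr1Cre and 148 ± 7.22 FPKM in control, SD, n = 2 each). Its place among the 21993 genes, counted from the highest FPKM, was 993 and 1082 in the Ncr1Cre libraries, against 348 and 366 in the control libraries. Ngfr has 1 annotated transcript, of 3446 nt, and its values correspond to about 5157 and 4118 fragments in Ncr1Cre and 20375 and 10374 in control, so counting error is small beside the difference.

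Of the kinase receptors, Ntrk2 was the more abundant neurotrophin receptor and was likewise lower. Ntrk2 stood at 6.68 and 7.08 FPKM in Ncr1Cre, against 13.4 and 12.2 FPKM in control, without overlap and 1.86-fold lower in the mean. GENCODE lists 10 transcripts of Ntrk2, 7 of them coding, and TrkB is known in a full-length form and in short forms without the kinase. A value per gene cannot say which form these fragments came from. Ntrk3 was near the lower end of what was measured, at 0.111 and 0.203 FPKM in Ncr1Cre, against 0.407 and 0.359 FPKM in control. Its groups did not overlap either, but the Ncr1Cre values were uneven, with an SD of 0.0647 FPKM on a mean of 0.157 FPKM. With coding transcripts of 423 to 19703 nt, the Ntrk3 values correspond to 1 to 91 fragments per library in Ncr1Cre and 3 to 309 in control, so they may rest on very few.

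The receptors for GDNF differed in opposite directions. Ret stood at 1.56 and 1.51 FPKM in the Ncr1Cre libraries, against 0.650 and 0.515 FPKM in the control libraries, and was 2.64-fold higher in the mean. Gfra1, its co-receptor, stood at 0.519 and 0.493 FPKM in Ncr1Cre, against 1.05 and 0.955 FPKM in control, and was 1.98-fold lower. Neither gene overlapped between the genotypes. The values of Ret correspond to roughly 154 to 222 fragments per library in Ncr1Cre and 49 to 136 in control, over its shortest and longest coding transcript. Those of Gfra1, with coding transcripts of 349 to 4641 nt, correspond to 4 to 63 fragments in Ncr1Cre and 7 to 187 in control. Gfra1 shares exon sequence with the antisense gene Gm16277, and the sources used here do not state whether strand was used, so their reads may be mixed.

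Among the ligands, Gdnf was the most abundant and was lower. It stood at 2.49 and 2.85 FPKM in the Ncr1Cre libraries, against 4.13 and 4.38 FPKM in the control libraries, 1.59-fold lower in the mean (2.67 ± 0.252 FPKM in Ncr1Cre and 4.25 ± 0.178 FPKM in control, SD, n = 2 each). On its 1 annotated transcript these values correspond to about 238 and 237 fragments in Ncr1Cre and 584 and 338 in control. Ntf3, the gene of NT3, was listed at 0.288 and 0.295 FPKM in Ncr1Cre, against 0.590 and 0.546 FPKM in control, a 1.95-fold lower mean that rests on about 9 to 11 fragments per library in Ncr1Cre and 15 to 34 in control. Bdnf was the only ligand of the 3 that was higher in the Ncr1Cre libraries.

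Bdnf stood at 0.348 and 0.333 FPKM in the Ncr1Cre libraries, against 0.271 and 0.120 FPKM in the control libraries. The control libraries differed more from each other (0.195 ± 0.107 FPKM) than the nearer of them did from Ncr1Cre (0.341 ± 0.0112 FPKM). Control replicate 2, the lowest, corresponds to only 9 to 11 fragments. The Bdnf mean was 1.74-fold higher in Ncr1Cre, but at levels this low the pseudocount compresses a difference: Ncr1Cre minus control was 0.17 on log2(FPKM + 1) and 0.63 on log2(FPKM + 0.1). The rescalings, applied to log2(FPKM + 1), gave 0.0049 by medians and 0.052 by quantiles. Median rescaling takes 1 constant per library off this scale, so it moved Bdnf by as much as Ngfr. For so low a gene that is more than a rescaling of FPKM itself would give. The values near 0 are therefore not read as a loss of the difference. Bdnf also overlaps the antisense gene Gm45346.

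**Figure D1:**
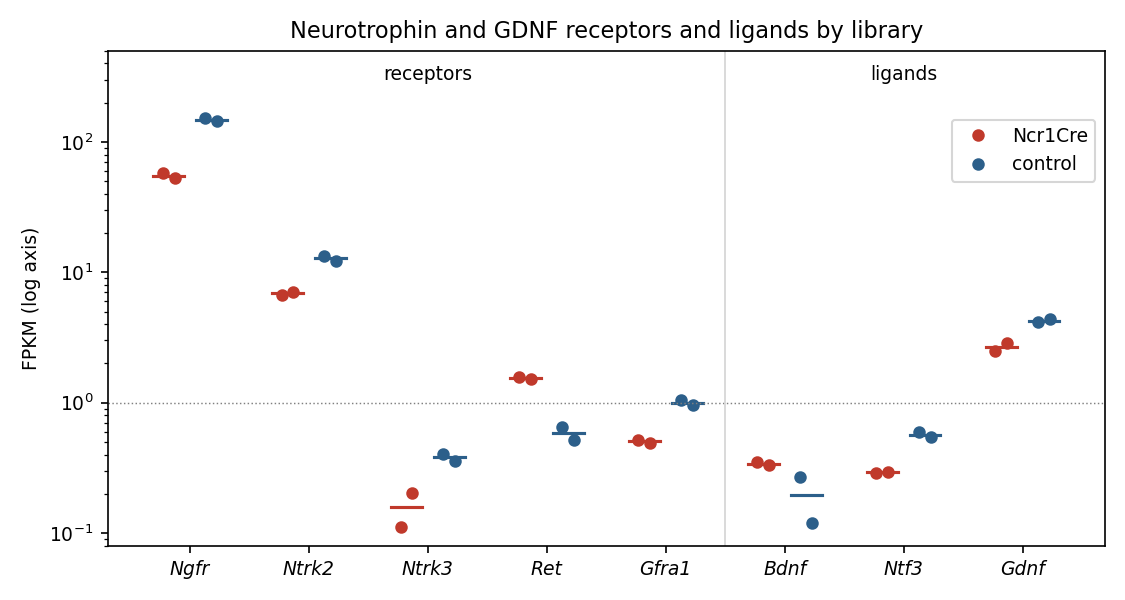
FPKM of the 5 receptor and 3 ligand genes in each library on a log axis, with points for libraries, bars for means of 2 libraries, Ncr1Cre left of control and a dotted line at 1 FPKM. Ngfr stands above all other members in every library, Ret and Bdnf are higher in Ncr1Cre, and the other 6 genes are higher in control.

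Together, 2 members were higher and 6 were lower in Ncr1Cre with no overlap of the libraries. Over the 17500 genes above 0 in at least 1 library, 42% were higher and 25.1% lower without overlap (67.2% in all), but the choice of the members used this contrast, so nothing is read from their count. Of the 8 members, 4 reached a mean of 1 FPKM over the libraries (Ngfr, Ntrk2, Gdnf and Ret). The scale on which a gene is compared matters for the direction of weak differences: over genes that averaged 1 FPKM or more the median log2 difference was 0.11, and after median rescaling it was -0.053. The Ngfr difference was -1.41 as deposited, -1.58 after median rescaling and -1.53 after quantile normalization. For Ret it was 0.68, 0.52 and 0.49 in the same order, for Ntrk2 -0.81, -0.97 and -0.97, and for Gdnf -0.52, -0.68 and -0.68. None of the 8 members changed sign under either scaling, but a shift made on log2(FPKM + 1) is too large for members of low FPKM.

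The order of the members by level differed between the genotypes below Gdnf. In both, Ngfr came first, Ntrk2 second and Gdnf next, with no overlap between neighbours. In the Ncr1Cre libraries Ret, Gfra1, Bdnf, Ntf3 and Ntrk3 followed in that order, again without overlap between neighbours, although Bdnf and Ntf3 were only 0.341 ± 0.0112 and 0.292 ± 0.0053 FPKM. In the control libraries the order was Gfra1, Ret, Ntf3, Ntrk3 and Bdnf, and Ret (0.583 ± 0.0949 FPKM) and Ntf3 (0.568 ± 0.0317 FPKM) overlapped.

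Ratios between members within a library do not depend on the scaling of that library. The ratio of Ret to Gfra1 was 3.01 and 3.06 in the Ncr1Cre libraries, against 0.621 and 0.540 in the control libraries. It was thus higher in Ncr1Cre. Which of the 2 genes outweighed the other cannot be read from it, because the Gfra1 level depends on the transcript length used and may include Gm16277 reads. The ratio of Gdnf to Ret was 1.59 and 1.89 in Ncr1Cre, against 6.35 and 8.49 in control. Among neurotrophin genes the shift was smaller for the receptors than for the ligands. Ngfr exceeded Ntrk2 by 8.61 and 7.44 times in Ncr1Cre, against 11.46 and 11.73 times in control. The ratio of Bdnf to Ntf3 was 1.21 and 1.13 in Ncr1Cre, against 0.459 and 0.220 in control, and the replicate spread in control comes from the low Bdnf value named above.

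**Figure D2:**
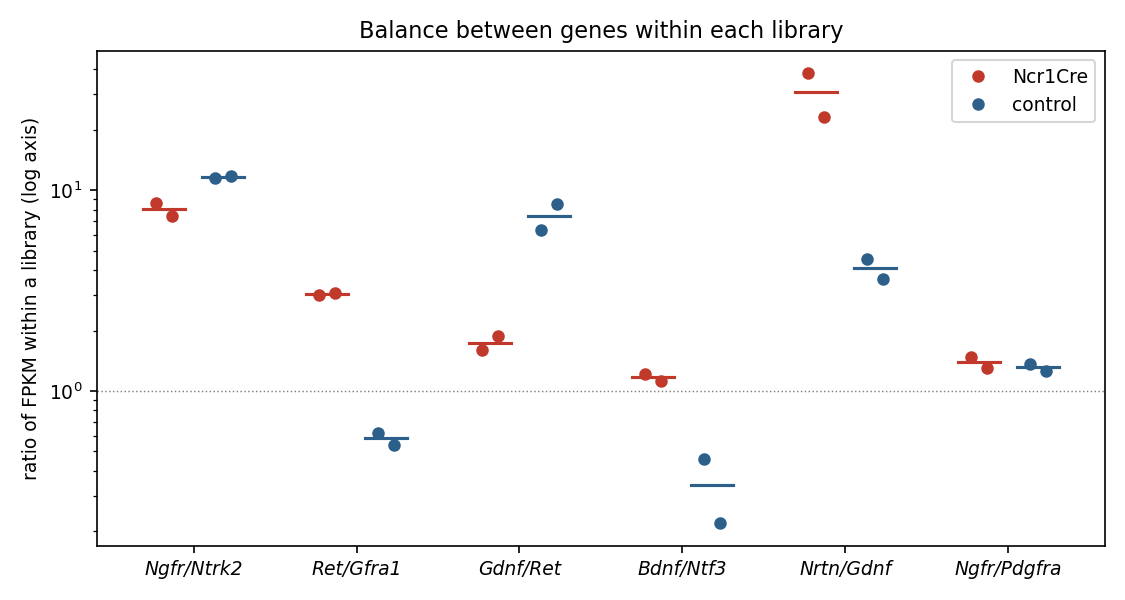
Ratio of the FPKM of a pair of genes within each library on a log axis, with points for libraries, bars for means, Ncr1Cre left of control and a dotted line at equal levels. The Ret to Gfra1 ratio lies above 1 in Ncr1Cre and below 1 in control. The ratio of Ngfr to the stromal receptor gene Pdgfra overlaps between the genotypes, unlike that of Ngfr to Ntrk2. Pdgfra was picked with its values known, and other stromal genes were lower by other amounts.

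By the likeness of their pattern over the 4 libraries, the genes nearest to Ngfr among 4757 that averaged 10 FPKM or more were Tgfbr2, Mmp14, Sparc, Itih5 and Prss23. Likeness was the root mean square difference between log2(FPKM + 1) values after each gene was set to its own mean. It was 0.016 for Tgfbr2, a receptor gene for TGF-beta, 0.025 for Mmp14, a membrane-bound matrix protease, and 0.027 for Sparc, a matrix protein of connective tissue. Tgfbr2 stood at 169 and 158 FPKM in the Ncr1Cre libraries, against 442 and 418 FPKM in the control libraries, a mean 2.63-fold lower, beside 2.70-fold for Ngfr. Itih5, a hyaluronan-binding protein gene, followed at 0.035 and the protease gene Prss23 at 0.040. With 4 libraries in 2 genotypes, a pattern is little more than the size of the difference between them and the replicate order.

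Further ligands and receptors of these families were read from a list of 15 genes, of which 7 reached a mean of 1 FPKM and were tested. Of these 5 rose and 1 fell in Ncr1Cre, under both rescalings as well, with a median log2 fold change of 1.03 against 0.11 over all tested genes. Over all 11762 tested genes 48.5% passed the same test, 30.9% higher and 17.6% lower. The higher share depended on scaling: of the passing genes 3638 were higher and 2071 lower as deposited, 2632 higher and 3069 lower with libraries rescaled to their medians, and 2615 higher and 3032 lower under quantile normalization. Of the 8 untested genes, Sorcs3, Gfra3 and Gfral, named with their values known, were listed at 0 in all 4 libraries, which in such a table can also be a failed estimate.

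Nrtn, the gene of neurturin, a GDNF relative that prefers the co-receptor GFRA2, was the most abundant ligand gene of the list and rose. It stood at 95.0 and 66.2 FPKM in the Ncr1Cre libraries, against 18.7 and 15.9 FPKM in the control libraries (log2 fold change 2.14, SE 0.19, limma adjusted p = 0.00101). Nrtn thus exceeded Gdnf by 38.2 and 23.2 times in Ncr1Cre, against 4.52 and 3.62 times in control. Gfra2 itself, named with its values known, stood at 0.128 and 0.0957 FPKM in Ncr1Cre, against 0.142 and 0.110 in control, and was not tested. Gdf15, a distant relative whose receptor GFRAL also works with RET, rose 3.33-fold to 28.7 ± 0.876 FPKM in Ncr1Cre, against 8.63 ± 0.197 FPKM in control (limma adjusted p = 0.000241). Ncam1, an adhesion molecule that is also a receptor for GDNF and marks human NK cells, rose to 15.3 ± 0.304 FPKM in Ncr1Cre, against 5.73 ± 0.545 FPKM in control (limma adjusted p = 0.000649). Gfra4, the co-receptor gene for persephin, stood at 3.20 ± 0.0024 and 3.14 ± 0.283 FPKM in Ncr1Cre and control (limma adjusted p = 0.860).

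The sortilin family, which binds neurotrophin precursors and sorts Trk receptors, moved both ways. Sort1 rose to 3.34 ± 0.456 FPKM in Ncr1Cre, against 1.56 ± 0.292 FPKM in control (limma adjusted p = 0.00982), and Sorl1 to 4.75 ± 0.196 FPKM, against 1.83 ± 0.243 FPKM (limma adjusted p = 0.00192). Sorcs2, a partner of p75 in binding the BDNF precursor, fell to 6.15 ± 0.132 FPKM in Ncr1Cre, against 12.8 ± 0.480 FPKM in control (limma adjusted p = 0.00104). Sorcs2 and Ngfr were thus both lower, and Ngfr exceeded Sort1 by 15.7 and 17.4 times in Ncr1Cre, against 86.8 and 106 times in control.

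Proteins that bind p75 inside the cell or carry its signal moved in both directions. Of 14 such genes 12 were tested, and 3 rose and 4 fell, or 2 rose and 6 fell after median rescaling and 2 rose and 4 fell after quantile normalization (median log2 fold change -0.087). Over all tested genes 48.5% passed as deposited, 30.9% higher and 17.6% lower. Without Ncr1Cre replicate 1, and without control replicate 2, 4 of the 12 passed, of which 2 rose and 2 fell. Maged1, which encodes the p75-binding protein NRAGE, fell to 159 ± 5.06 FPKM in Ncr1Cre, against 220.4 ± 7.69 FPKM in control (limma adjusted p = 0.00403), and its relative Ndn fell to 16.2 ± 1.31 FPKM, against 27.2 ± 0.570 FPKM (limma adjusted p = 0.00263). Ngfrap1, whose protein binds the p75 death domain, rose to 29.8 ± 0.121 FPKM in Ncr1Cre, against 17.4 ± 2.30 FPKM in control (limma adjusted p = 0.00436), and its relative Bex1 rose to 6.73 ± 0.143 FPKM, against 2.56 ± 0.546 FPKM (limma adjusted p = 0.00256).

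Of 19 genes for cutting neurotrophin precursors or p75 itself, 16 were tested, and 4 rose and 3 fell, or 3 rose and 5 fell under either rescaling (median log2 fold change 0.020). The shares over all tested genes were 30.9% higher and 17.6% lower as deposited. Mmp7, a matrix protease able to cleave neurotrophin precursors, rose 4.87-fold to 136 and 150 FPKM in the Ncr1Cre libraries, against 27.9 and 30.8 FPKM in the control libraries (limma adjusted p = 0.000178). Mmp7 is also a gene of uterine epithelium. Among the proprotein convertases, Pcsk6 rose to 46.9 ± 0.0221 FPKM in Ncr1Cre, against 13.4 ± 1.41 FPKM in control (limma adjusted p = 0.000294), and Pcsk5 fell to 16.5 ± 0.178 FPKM, against 40.3 ± 1.47 FPKM (limma adjusted p = 0.000353). Psenen, a subunit of the gamma-secretase that cuts the p75 stalk after shedding, rose to 88.5 ± 5.07 FPKM, against 51.0 ± 3.63 FPKM (limma adjusted p = 0.00182).

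Adaptors of TRK and RET moved both ways, and several of the abundant ones fell. Of 29 genes 25 were tested, and 3 rose and 8 fell as deposited, 2 rose and 11 fell after median rescaling, and 2 rose and 10 fell under quantile normalization (median log2 fold change -0.18). As deposited, 11 of the 25 passed, beside 48.5% of all tested genes (30.9% higher and 17.6% lower). Shc1, the adaptor that links TRK and RET to the RAS pathway, fell to 29.0 ± 1.45 FPKM in Ncr1Cre, against 54.3 ± 2.62 FPKM in control (limma adjusted p = 0.00103). Gab2, which encodes a docking protein, fell to 5.97 ± 0.0906 FPKM, against 13.4 ± 0.662 FPKM (limma adjusted p = 0.000812), and Grb10, which binds RET among other receptors and is imprinted, to 26.2 ± 1.85 FPKM, against 50.3 ± 0.289 FPKM (limma adjusted p = 0.000938). Grb7, another RET-binding adaptor, rose 4.29-fold to 18.8 ± 0.765 FPKM, against 4.38 ± 0.237 FPKM (limma adjusted p = 0.000241). These adaptors serve many receptors and their values say nothing of which receptor used them.

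Genes that such receptors are known to induce, and the inhibitors that feed back on the pathway, also moved both ways. Of 15 genes 13 were tested, and 5 rose and 3 fell, or 5 rose and 4 fell after median rescaling, and 5 rose and 5 fell under quantile normalization (median log2 fold change -0.028). Beside them, 30.9% of all tested genes rose and 17.6% fell as deposited. The 3 that fell as deposited, named with their values known, were Fos, Egr1 and Spry2. Fos stood at 1181 ± 16.9 FPKM in Ncr1Cre, against 1499 ± 5.46 FPKM in control (limma adjusted p = 0.00720). Egr1 stood at 472 ± 24.2 FPKM, against 580 ± 23.3 FPKM (limma adjusted p = 0.0206), and Spry2 at 29.2 ± 1.19 FPKM, against 37.4 ± 1.52 FPKM (limma adjusted p = 0.0166). The number that fell rested on single libraries: it was 1 without Ncr1Cre replicate 2 and 1 without control replicate 1, and 5 without Ncr1Cre replicate 1. The genes of the MAP kinase phosphatases Dusp6 and Dusp5 rose: Dusp6 stood at 20.7 ± 0.318 FPKM in Ncr1Cre, against 7.46 ± 0.364 FPKM in control (limma adjusted p = 0.000378), and Dusp5 at 58.2 ± 9.17 FPKM, against 21.4 ± 3.18 FPKM (limma adjusted p = 0.00183). Arc, an activity-induced gene of neurons, rose to 9.62 ± 1.04 FPKM, against 4.78 ± 0.416 FPKM (limma adjusted p = 0.00345). Dusp4 rose to 3.81 ± 0.914 FPKM, against 1.73 ± 0.339 FPKM (limma adjusted p = 0.0165), a call that was lost without control replicate 2.

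**Figure D3:**
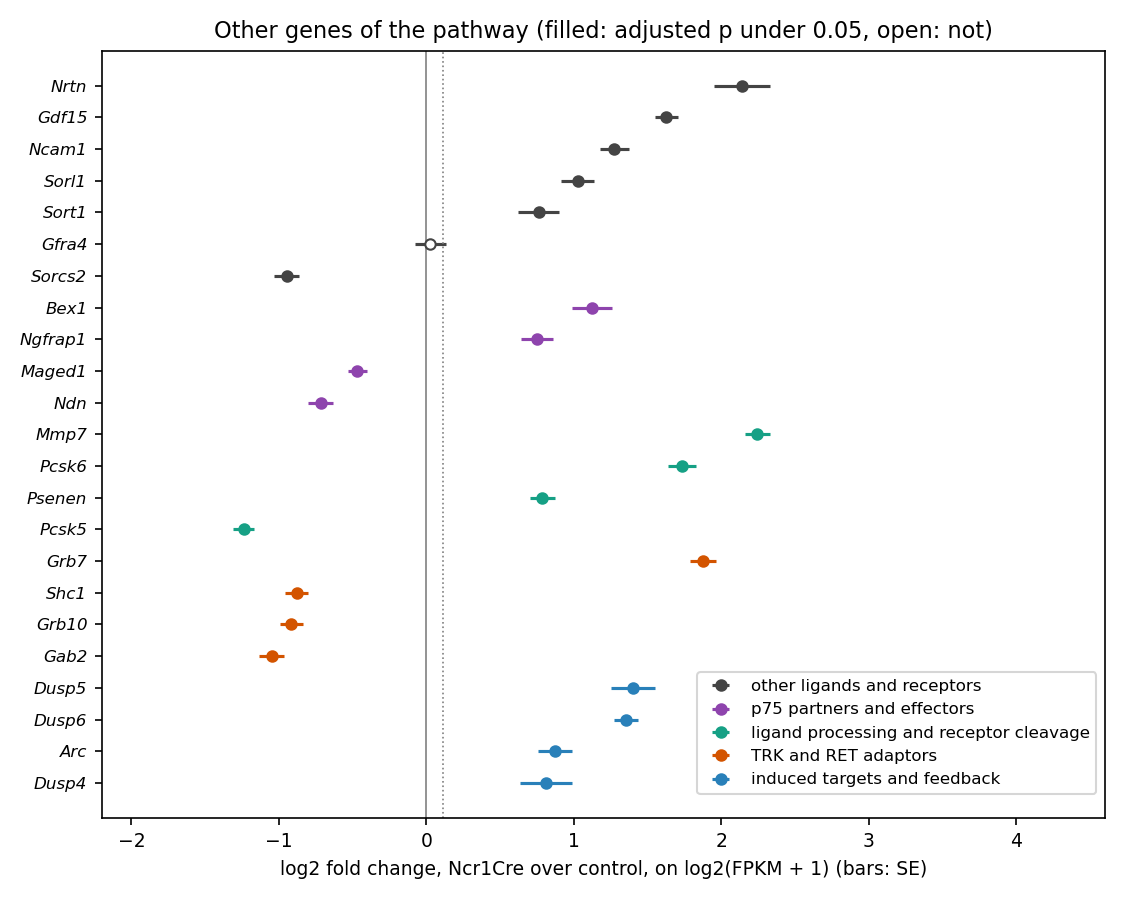
Log2 fold change of the named pathway genes, Ncr1Cre over control, on the log2(FPKM + 1) scale with SE bars, colored by list. Filled points passed the limma test, the open point Gfra4 did not, the solid line marks 0 and the dotted line the median of all tested genes at 0.11.

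Markers of several uterine cell types moved between the same libraries, as did 48.5% of all tested genes (30.9% higher and 17.6% lower). Sox10 and Foxd3, which define Schwann cells and their precursors, were listed at 0 in all 4 libraries, and so were the neuronal genes Snap25 and Nefl. Of 10 Schwann-cell and glial genes 3 were tested, of which Erbb3 and Mbp rose and Pmp22, also a gene of fibroblasts, fell, or 1 rose and 1 fell under either rescaling. The summed FPKM of that list was 54.6 and 57.5 in the Ncr1Cre libraries, against 118 and 116 in the control libraries, most of it from Pmp22 (39.2 and 42.6 FPKM in Ncr1Cre, against 111 and 110 in control). The 10 neuronal genes summed to 4.93 and 4.99 FPKM in Ncr1Cre, against 4.15 and 4.40 in control. The part of glial and nerve cells in the levels of the members was not tested.

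Marker lists of stroma, smooth muscle, pericytes and mesothelium had lower sums in the libraries in which Ngfr, Ntrk2, Gdnf and Gfra1 were lower. Among 11 decidual stromal and fibroblast genes 9 fell and 1 rose, of 7 tested smooth-muscle genes all 7 fell, and of 5 mesothelial genes all 5 fell, under both rescalings as well. Among all tested genes 30.9% rose and 17.6% fell as deposited. The stromal gene that rose was Prl8a2, a prolactin-family gene of decidua, at 21.9 and 24.7 FPKM in Ncr1Cre, against 3.35 and 4.12 in control. Wnt4 of the same list did not pass (limma adjusted p = 0.121), so the list did not fall as a whole. Of 6 tested pericyte genes 3 fell and 1 rose, or 4 fell and 1 rose after median rescaling and 4 fell and 0 rose after quantile normalization. Smooth-muscle genes summed to 218 and 212 FPKM in Ncr1Cre, against 598 and 587 in control, mesothelial genes to 85.1 and 80.8, against 257 and 245, and pericyte genes to 27.9 and 24.6, against 47.8 and 43.6. The ratio of Ngfr to Pdgfra, a receptor gene of stromal cells picked after its values were seen, was 1.47 and 1.30 in Ncr1Cre and 1.36 and 1.26 in control, so the genotypes overlapped. That overlap depends on the gene chosen. Pdgfra was 2.85-fold lower in the mean, beside 2.70-fold for Ngfr. Others of the stromal list were lower by other amounts, such as Postn by 3.52-fold, Dcn by 2.31-fold and Hand2 by 1.42-fold. The ratio of Ngfr to the mesothelial gene Msln, picked in the same way, overlapped too. It was 1.74 and 1.48 in Ncr1Cre and 1.60 and 1.47 in control. This overlap likewise depends on the gene chosen. Msln was 2.82-fold lower in the mean. The other mesothelial genes were lower by other amounts: Upk1b by 3.13-fold, Upk3b by 3.60-fold, Lrrn4 by 4.41-fold and Wt1 by 1.998-fold. For the smooth-muscle gene Acta2, also picked with its values known, the ratio of Ngfr to it was 6.95 and 5.56 in Ncr1Cre, against 2.03 and 1.87 in control, without overlap. Ngfr was thus less reduced than Acta2 (8.59-fold lower), but more than Des (1.74-fold lower) and Smtn (1.21-fold lower) of the same list. The ratios of Gdnf, Ntrk2 and Gfra1 to Pdgfra did not overlap and were higher in Ncr1Cre. Gdnf to Pdgfra was 0.0638 and 0.0704 in Ncr1Cre, against 0.0366 and 0.0384 in control, and Ntrk2 to Pdgfra was 0.171 and 0.175, against 0.119 and 0.107. Gfra1 to Pdgfra was 0.0133 and 0.0122 in Ncr1Cre, against 0.00928 and 0.00838 in control. The part of these cell types in the levels of the members was not tested.

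Epithelial, trophoblast and macrophage genes were higher where Ret and Nrtn were higher. Of 9 epithelial genes 8 rose and 0 fell, of 5 tested trophoblast genes all 5 rose, and of 6 tested macrophage genes all 6 rose, under both rescalings as well. The shares over all tested genes were again 30.9% higher and 17.6% lower as deposited. Epithelial genes summed to 48267 and 51247 FPKM in Ncr1Cre, against 10016 and 10134 in control. Most of that sum came from Prap1 (46369 and 49335 FPKM in Ncr1Cre, against 9530 and 9667 in control). Trophoblast genes summed to 940.4 and 1064 FPKM in Ncr1Cre, against 313 and 354 in control, and macrophage genes to 95.9 and 94.4, against 27.5 and 29.5. The ratio of Nrtn to Epcam, an epithelial adhesion gene chosen after its values were seen, was 0.779 and 0.544 in Ncr1Cre, against 0.673 and 0.540 in control, and overlapped. That of Ret to Epcam was 0.0128 and 0.0124 in Ncr1Cre, against 0.0234 and 0.0175 in control. The part of these cells in the levels of Ret and Nrtn was not tested either. Of 5 tested NK-cell genes 3 rose and 0 fell, or 2 and 0 under either rescaling. As deposited, Prf1, Il2rb and Ptprc rose, and Nkg7 and Gzma did not pass (limma adjusted p = 0.189 and 0.738). The other 6 genes of that list, Ncr1 and Klrb1c among them, stood below the filter. Of 6 tested endothelial genes 3 rose and 1 fell. All 5 T-cell genes stood below the filter.

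**Figure D4:**
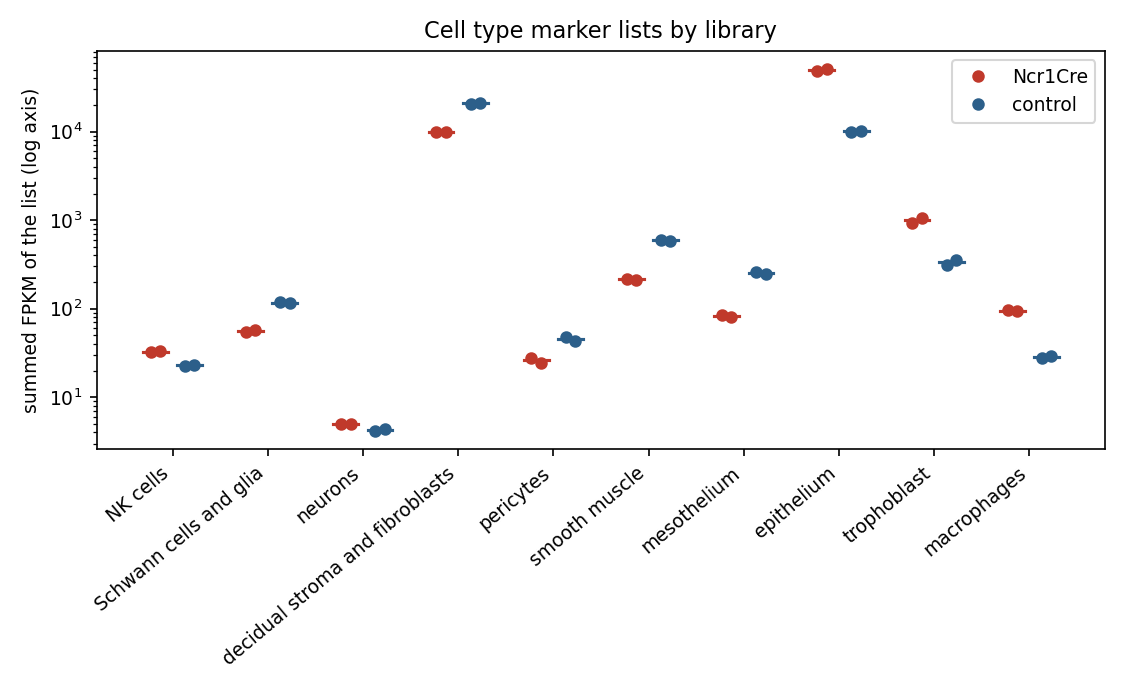
Summed FPKM of marker lists in each library on a log axis, with points for libraries, bars for means and Ncr1Cre left of control. Lists of stroma, pericytes, smooth muscle and mesothelium are lower in Ncr1Cre, those of epithelium, trophoblast and macrophages higher, and the neuronal list stays below 5 FPKM in every library.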

How the data were processed

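Each file holds the FPKM values of 1 library, which the authors computed with Cufflinks against mm9, as the submitters' processing notes state without a version. Not given in the sources used here are the aligner, the annotation, the strand setting and the handling of multiply mapped reads. Groups and replicate numbers come from the labels, and the rest of the genotype and some genes of the pathway are not reported here. The members and the gene lists were chosen with earlier results of these data known. Members were matched by symbol. In the lists, 2 older symbols were matched through identifiers, and 27 symbols that a spreadsheet had turned into dates were restored in the same way.

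The test of the other genes was limma 3.58.1 in R 4.3.3 with an intensity trend on log2(FPKM + 1), over the 11762 genes that averaged 1 FPKM or more. P-values are two-sided, with Benjamini-Hochberg adjustment over all tested genes and calls under 0.05. Fold changes on this scale understate changes of low genes. With 2 libraries against 2, the smallest two-sided p of an exact permutation test is 0.333. The procedure was tested on simulated data in which far fewer genes changed than were called here, so that test does not cover so large a share. Library totals were searched for the value that made low FPKM whole fragments within 0.02, which held for 34.4% to 37.4% of low values, so no count test was run. Transcript lengths and overlaps come from GENCODE M21. Named were the members, the tested genes of the remaining ligands and receptors, the sort-marker genes, up to 4 called genes per other list by size of change, and the 5 genes most like Ngfr. Where another gene is named, the text says that it was picked with its values known, except for examples from the marker lists. Alternatives were a pseudocount of 0.1, no filter, an average of 5 FPKM or more, rescaling to the library median, quantile normalization, the replicate block and leaving out each library.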

Additional observations from a re-analysis of the deposited data

How the results depend on the processing

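None of the 8 member differences changed sign in the 56 recomputed values (pseudocount 0.1, median rescaling, quantile normalization and each library left out). Bdnf stood at 0.0049 and 0.052 under the rescalings, whose shift on log2(FPKM + 1) is too large for so low a gene. With a pseudocount of 0.1 it stood at 0.63. The 23 named pathway genes kept their side of the threshold under all alternatives that tested them, except Dusp4 without control replicate 2. With a mean of at least 5 FPKM required, 4 of the 4 tested remaining ligands and receptors and 4 of the 7 tested p75 partners passed, against 6 and 7 without that bound, because fewer genes were tested. Leaving out 1 library, assuming that a lone library varies as the others do, gave 4092 to 5034 calls over all genes against 5709. It gave 6 calls throughout in the remaining ligands and receptors, 4 to 7 in the p75 partners, 6 to 8 in ligand processing, 8 to 10 in the adaptors and 6 to 10 in the induced targets. The labels share only a replicate number, and replicate differences correlated at 0.16 between genotypes over 11762 genes. The replicate block gave 6004 calls, and 13 calls in the adaptors, 10 in the induced targets, 6 in the remaining ligands and receptors and 7 in each of the other 2 lists. With so few libraries, limma borrows its estimate of the spread from all genes, and members below 1 FPKM rest on few fragments.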
